A study of Mus musculus with 45 samples.

Results

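The comparison covers unstimulated (M0) bone marrow-derived macrophages of Famin p.284R mice against those of Famin p.254I mice. It takes 10 of the 45 libraries of the series, namely the 5 M0 libraries labelled 284R and the 5 labelled 254I, chosen by genotype and polarization in the sample labels. All animals were C57BL/6N mice of 6 to 10 weeks that had been engineered to carry a human FAMIN variant. The 254I allele is the non-risk variant and serves as the reference, 284R is the allele of a monogenic inflammatory disease, and 254V (5 further M0 libraries, used here side by side) is the common risk allele. Marrow was cultured for 6 days with M-CSF, and the harvested macrophages were left for a further day without IFN-γ, LPS or IL-4. Both groups therefore shared strain, M-CSF differentiation and the absence of a stimulus, and differed by genotype. According to the study's methods the lines were bred as heterozygotes and littermates were used, while the labels do not say which cultures came from which litter. Cultures were taken from whole marrow, so a difference in RNA per cell cannot be told apart from a difference in the cells present.

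FAMIN, encoded by Lacc1, is a purine nucleoside enzyme that macrophages express and that acts on adenosine, inosine and guanosine. It stands at the edge of the purine nucleotide cycle, in which AMP is deaminated to IMP and rebuilt through adenylosuccinate with release of fumarate. Proton handling is tied to this metabolism because ATP turnover and glycolysis release acid, which cells remove with Na+/H+ exchangers of the SLC9 family, monocarboxylate and bicarbonate transporters, the proton channel HVCN1 and, at endosomes and lysosomes, the V-ATPase.

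The alleles are named for codons 254 and 284 of FAMIN. To show where they lie in the mouse gene, the reference bases around each codon (GRCm38, GENCODE transcript of 430 codons, both in exon 5 of 8, minus strand) are given with the codon in capitals.
Lacc1 codon 254 (chr14:77033319-77033345): cacgccagtgaaGTGtgggttatgggg
Lacc1 codon 284 (chr14:77033229-77033255): cttggcgccgacTGTatacccatcgtc
By the genetic code GTG stands for valine and TGT for cysteine. The reference mouse thus carries at codon 254 the residue of the risk allele. What the 284R line carries at codon 254 is not given in the sources used here, and read counts per gene do not show it.

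Each library held between 21201709 and 33864710 counted reads, with 23883818 to 29497888 in 254I and 21201709 to 33864710 in 284R. Of 29307 genes in the count table, 12159 were expressed enough to be tested. Macrophage markers were high in every library. The 8 markers (Adgre1, Csf1r, Cd68, Itgam, Mertk, Fcgr1, Lyz2 and C1qa) summed to 20264 to 30386 CPM (counts scaled to a common library size) in 254I and to 21808 to 32511 CPM in 284R. B cell, T and NK cell and erythroid markers together stayed under 1 CPM in each library. Monocyte markers summed to 56.1 to 107.9 CPM in 254I and 44.9 to 111.5 CPM in 284R. Osteoclast markers summed to 29.8 to 63.5 and 28.5 to 71.7 CPM, and stromal markers to 16.9 to 88.4 and 22.7 to 68.3 CPM. Neutrophil markers, 7 genes with Ngp, S100a8 and S100a9 among them, ran from 26.4 to 256.7 CPM in 254I and from 26.1 to 281.3 CPM in 284R, and the highest values fell in replicates 1 and 2 of both genotypes. Xist was between 656.3 and 837.6 CPM in all 10 libraries. The library of 254I replicate 4 stood apart from the other 9 by its interferon-stimulated genes, described below, and the results that it moved most are given with and without it.

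Across the genome 1 gene was called between the 2 genotypes. Slc9a9, which encodes the endosomal Na+/H+ exchanger NHE9, was higher in 284R and was the only gene of 12159 with an adjusted p under 0.05 (0.00822%; edgeR, quasi-likelihood, p adjusted after Benjamini and Hochberg). Before adjustment, 33 genes higher in 284R (0.271%) and 29 lower ones (0.239%) had p under 0.05. Over 11088 genes the replicate number (4 degrees of freedom) took a median of 71.8% of the variance and genotype (1 degree) 2.32%. The test without a block keeps the differences between replicate numbers in its spread. Genes that were not called are therefore not shown to be unchanged. The remaining differences were small. The median absolute log2 fold change was 0.050, the median standard error 0.11, and for 11191 genes (92.0%) the 95% interval (from the standard error and 8 residual degrees of freedom) lay within a 2-fold change in either direction. In the plot of fold change against level, Slc9a9 lies above the other genes tested. Beyond a 2-fold change there were 5 genes higher and 15 lower, and for 14 of the 15 lower genes the highest of the 10 libraries was 254I replicate 4. Without that library 1 of the 15 stayed past 2-fold and 11 were higher in 284R.

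**Figure D1:**
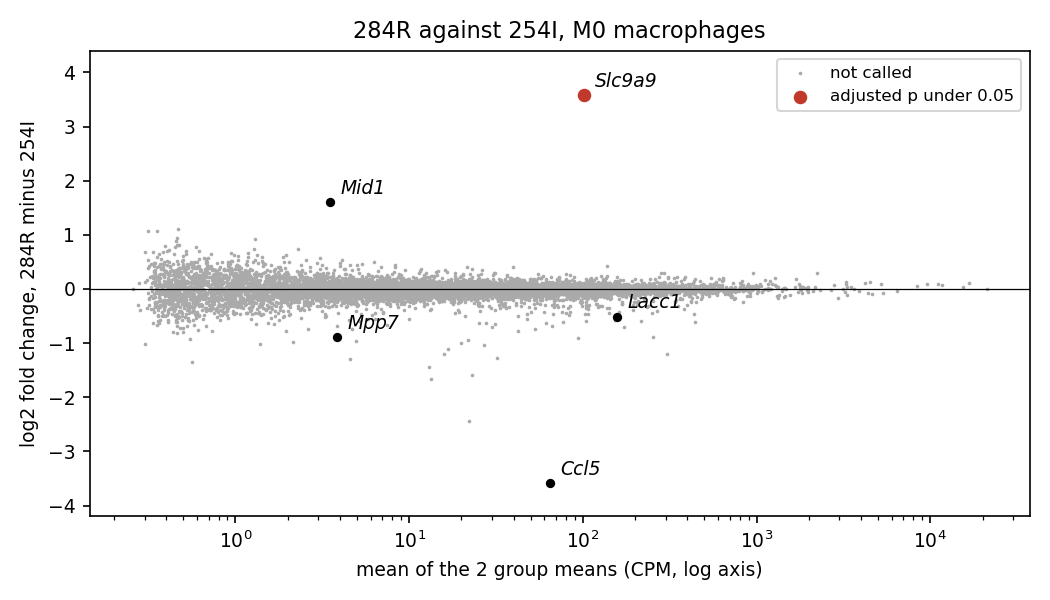
Log2 fold change of 284R minus 254I in M0 macrophages (y axis) against the mean of the 2 group means in CPM (x axis, log scale) for the 12159 genes tested, 1 grey point a gene. Slc9a9, in red at 3.58, is the gene with an adjusted p under 0.05, and the other 4 labelled genes are in black.

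Slc9a9 (ENSMUSG00000031129) lies on chromosome 9 of GRCm38 from 94669909 to 95230445, on the plus strand. NHE9 is known to exchange protons of the endosomal lumen for cations and so to set endosomal pH. The 5 libraries of 254I, in the order of their replicate numbers, held 15.3, 21.7, 15.1, 14.9 and 11.2 CPM. Those of 284R held 213.3, 253.4, 168.7, 162.0 and 139.5 CPM. The groups did not overlap, and the lowest 284R library was 6.43 times the highest 254I library. Group means were 15.6 ± 3.78 CPM (SD, n = 5) and 187.4 ± 45.6 CPM, an 11.98-fold difference. On the log2 scale this came to 3.58 with SE 0.21 and a 95% interval of 3.11 to 4.05, and edgeR gave an adjusted p of 2.6e-05.

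Levels within each genotype followed the replicate number. Replicate 2 had the highest Slc9a9 of its group in both genotypes and replicate 5 the lowest, so the ratio between the libraries of a number varied less than the levels did. It was 14.0 in replicate 1, 11.7 in replicate 2, 11.2 in replicate 3, 10.9 in replicate 4 and 12.4 in replicate 5. With the replicate number as a block the log2 fold change stayed at 3.58 and its standard error fell to 0.065. Slc9a9 was again the only gene called (adjusted p = 3.8e-08), and 247 genes then had an unadjusted p under 0.05.

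**Figure D2:**
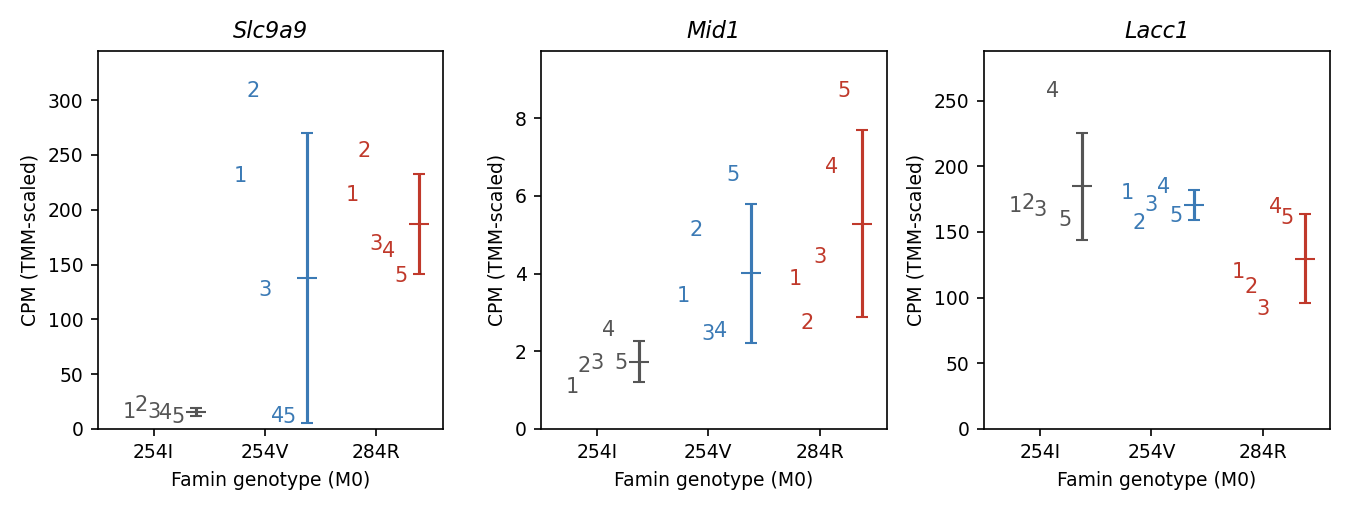
Slc9a9, Mid1 and Lacc1 in the M0 libraries of the 3 genotypes, in CPM on linear axes that start at 0. Each digit is a library and gives its replicate number, and the horizontal mark with bars is the group mean ± SD (n = 5). All 284R libraries lie above all 254I libraries for Slc9a9 and Mid1, those of Lacc1 overlap, and 254V replicates 4 and 5 lie at the level of the lowest 254I libraries for Slc9a9.

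The third genotype bears on how this difference reads. In 254V the M0 libraries held 231.1, 308.2, 126.5, 12.02 and 10.9 CPM of Slc9a9 in replicates 1 to 5. Replicates 1 and 2 thus lay within or above the 284R range and replicate 3 just under it, while replicates 4 and 5 were at the level of the lowest 254I libraries. In the fit of the 15 M0 libraries, where the 3 genotypes share a single estimate of spread, the 284R difference kept its size (3.58) but Slc9a9 was no longer called (adjusted p = 1.00, edgeR). The same held in the fit of all 45 libraries (3.58, adjusted p = 0.17), and both fits called 0 genes. The 254V libraries are part of neither group compared here.

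The same gene stood apart in the polarized cultures of these mice. In M1 the 254I libraries held 4.89 to 7.40 CPM of Slc9a9 and the 284R libraries 26.0 to 52.1 CPM. M2 libraries held 1.81 to 4.24 and 12.5 to 46.4 CPM. The split within 254V was there too. Its replicates 4 and 5 held 5.25 and 6.00 CPM in M1 and 2.41 and 2.43 CPM in M2, within the 254I ranges. Replicates 1 to 3 of 254V held 35.1 to 69.8 CPM in M1 and 29.6 to 50.3 CPM in M2. What sets these 254V libraries apart was not tested. In the fit of the 30 libraries of both genotypes the log2 fold change was 2.64 (SE 0.30) in M1 and 3.42 (SE 0.32) in M2, beside 3.58 (SE 0.29) in M0. The M1 difference was smaller than that of M0 by 0.94 (SE 0.39, adjusted p = 1.00, edgeR), which did not pass the test. Over 12736 genes, neither the change of the genotype difference from M0 to M1 nor that from M0 to M2 gave a called gene (0% in each case, edgeR), and DESeq2 and limma-voom called 0 as well. Before adjustment 277 genes for M1 and 49 for M2 had p under 0.05. Both comparisons share the M0 libraries.

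Slc9a9 was the only member of its family to pass the test. Of the 11 SLC9 genes listed, 8 were expressed enough to be tested, 1 was called, and the median log2 fold change of the 8 was 0.03, beside -0.01 for all genes tested. Per kilobase of exon, Slc9a9 ranked 5 of 8 in 254I with 2.75 CPM per kilobase, under Slc9a7 (6.62) and Slc9a8 (5.27) among others. In 284R it ranked 1 of 8 with 33.0 CPM per kilobase, while Slc9a7 stood at 6.31 and Slc9a8 at 5.34. Slc9a8 encodes NHE8, an exchanger of the Golgi and endosomes, and its log2 fold change was 0.01 (SE 0.069, 95% interval -0.15 to 0.17). Slc9b2 (2.34 against 3.07 CPM) and Slc9a4 (0.705 against 0.934 CPM) were low, and their intervals reached to 1.30 and 1.33 on the log2 scale, so that a 2-fold difference was not excluded. For Slc9b2 the highest 254I library was replicate 4, with 4.54 CPM against 1.16 to 2.64 CPM in the others, and the log2 fold change went from 0.40 to 0.79 (SE 0.34, adjusted p = 1.00, edgeR) without it. Slc9a9 made up 7.53% of the CPM of the tested family members in 254I and 49.5% in 284R.

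None of the other routes of acid transport passed the test. Of 10 tested genes for monocarboxylate and bicarbonate transport, carbonic anhydrases and the proton channel, 7 were higher and 3 lower, with a median log2 fold change of 0.03. Hvcn1, the voltage-gated proton channel, averaged 116.4 ± 31.9 CPM in 254I and 137.7 ± 22.7 CPM in 284R (0.24, SE 0.19), and differed by 0.11 (SE 0.14) without 254I replicate 4. Slc16a3, the lactate exporter MCT4, averaged 40.0 and 40.7 CPM. The V-ATPase, the pump that acidifies the compartments in which NHE9 works, was measured closely. For each of its 18 tested subunits the interval lay within a 2-fold change, and the log2 fold changes ran from -0.05 to 0.08. The 17 lysosomal genes had a median of -0.00.

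No neighbouring gene of Slc9a9 passed the test. Of 38 genes within 2 Mb in the count table, 14 were tested, and edgeR called 0, with 0 also at an unadjusted p under 0.05. Their log2 fold changes ran from -0.04 to 0.36 with a median of -0.01. The nearest tested gene, 1190002N15Rik, lies 131828 bp away and differed by -0.03. Slc9a9 is overlapped by 2 genes on the opposite strand, Gm16262 and Gm47168, and by 1 on its own strand, Mir7656. On the opposite strand Mid1 is overlapped by 5 genes, G530011O06Rik among them, and Lacc1 by Ccdc122. The study's methods name a stranded mRNA library kit, but whether counting used strand is not given in the sources used here. How far reads of these genes enter the counts of Slc9a9, Mid1 and Lacc1 therefore cannot be told. As counted, Ccdc122 differed by -0.05 and G530011O06Rik by 0.28, while Gm16262 was not expressed enough to be tested.

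Mid1 (ENSMUSG00000035299) came next by p. It encodes midline 1, a microtubule-associated ubiquitin ligase that directs the degradation of a phosphatase 2A subunit, and lies on chromosome X from 169685199 to 170005736 on the plus strand of GRCm38. The 254I libraries held 1.08, 1.62, 1.71, 2.54 and 1.70 CPM and the 284R libraries 3.87, 2.74, 4.42, 6.74 and 8.70 CPM. The groups did not overlap, but the lowest 284R library was only 1.08 times the highest 254I library. Means were 1.73 ± 0.52 and 5.29 ± 2.40 CPM (SD, n = 5). In edgeR the log2 difference of 1.61 (SE 0.33) had an adjusted p of 1.00. DESeq2's Wald test called Mid1 (adjusted p = 0.0055), while edgeR with the replicate block did not (adjusted p = 0.40). In M2 of the same genotypes the difference was 2.79 (SE 0.32, adjusted p = 1.3e-05, edgeR) and in M1 it was 1.34 (SE 0.30, adjusted p = 0.12). The larger M2 difference, by 1.18 (SE 0.44), did not pass the test of the change itself (adjusted p = 1.00). With the mouse as a block the change was 1.26 (SE 0.24, adjusted p = 0.44, edgeR), which did not pass either. In 254V the M0 libraries held 3.42, 5.11, 2.44, 2.51 and 6.55 CPM, so that 3 of 5 lay above all 254I libraries. Of 16 genes within 2 Mb of Mid1, 4 were tested and 0 were called or had an unadjusted p under 0.05.

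Lacc1 (ENSMUSG00000044350, chromosome 14 from 77024200 to 77036904, minus strand) carries the alleles compared. Its mRNA level does not check the genotype, because the alleles differ in codons and not by a deletion. The 254I libraries held 169.5, 171.9, 166.3, 257.1 and 158.8 CPM and the 284R libraries 119.4, 108.2, 91.2, 169.1 and 160.4 CPM. Levels were lower in 284R in 4 of 5 replicate pairs and about equal in replicate 5 (ratio 1.01), and the groups overlapped. The pair of replicate 4 set 169.1 CPM in 284R against the 257.1 CPM of 254I replicate 4. The 284R libraries of replicates 4 and 5 lay within the 158.8 to 171.9 CPM of the other 254I libraries. The remaining 284R libraries, at 91.2 to 119.4 CPM, lay below all 254I libraries. Means were 184.7 ± 40.8 and 129.6 ± 33.7 CPM. In edgeR the log2 difference was -0.51 (SE 0.19), with an unadjusted p of 0.019 and an adjusted p = 1.00. Without 254I replicate 4, the highest library, the difference was -0.36 (SE 0.16). A two-sided exact permutation test on log2(CPM + 1) gave p = 0.048 with the pairing ignored and all 10 libraries kept. Lacc1 was 1 of 3 genes tested in this way, with Slc9a9 and Mid1, and the p was not adjusted for that. With labels exchanged only within replicate pairs the exact permutation p was 0.125, where 5 pairs allow no p under 0.0625.

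Partners of FAMIN in purine metabolism differed little with all 10 libraries. Of 16 tested genes of the purine nucleotide cycle and salvage, 11 were higher, 5 lower and 0 called, with Lacc1 the 1 gene at an unadjusted p under 0.05. Without 254I replicate 5, 14 were higher, 2 lower and 0 called (median 0.05). In that fit 3 of the 16 had an unadjusted p under 0.05 (edgeR), beside 169 of all 12248 genes. Without 254I replicate 4, 10 were higher and 6 lower (0.01). Adssl1 and Adss, the adenylosuccinate synthases, averaged 124.3 against 137.2 CPM and 99.7 against 106.8 CPM. Aprt, which salvages adenine, averaged 101.8 ± 9.01 against 109.8 ± 10.3 CPM (0.10, SE 0.083). It was higher in 284R in 5 of 5 pairs, as were 288 of the 12159 genes tested (2.37%). The 11 genes of purine synthesis de novo had a median of 0.01 (0.08 without 254I replicate 5 and -0.04 without 254I replicate 4), and for each of the 11 the interval lay within a 2-fold change.

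Energy metabolism gave the same picture of small differences. The 18 glycolytic genes had a median log2 fold change of 0.04, with 14 higher and 4 lower. Without 254I replicate 4 there were 10 higher and 8 lower (0.02), and without 254I replicate 5, the highest 254I library of this list, 16 and 2 (0.10). Aldoa, fructose-bisphosphate aldolase, averaged 779.4 ± 74.3 against 861.1 ± 87.6 CPM (0.14, SE 0.092) and was higher in 284R in 5 of 5 pairs (2.37% of all genes tested). Fatty acid synthesis (12 genes), fatty acid oxidation (20) and the respiratory chain (24) had medians of 0.02, 0.01 and 0.00, and each interval in these lists lay within a 2-fold change. The 15 genes of electron shuttles had a median of -0.00 and the 6 of the NADPH oxidase 0.03. Cholesterol synthesis (16 genes), amino acid stress genes of ATF4 (15) and immediate early and heat shock genes (11) had medians of 0.03, 0.02 and 0.01, and 0 genes of these lists were called. Without 254I replicate 5 the medians of the cholesterol and ATF4 lists were 0.12 and 0.19. In both lists replicate 5 had the highest sum of each genotype, and that fit kept 284R replicate 5. The cholesterol sums of replicate 5 were 643 CPM in 254I and 626 CPM in 284R, and the ATF4 sums 751 and 691 CPM.

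**Figure D3:**
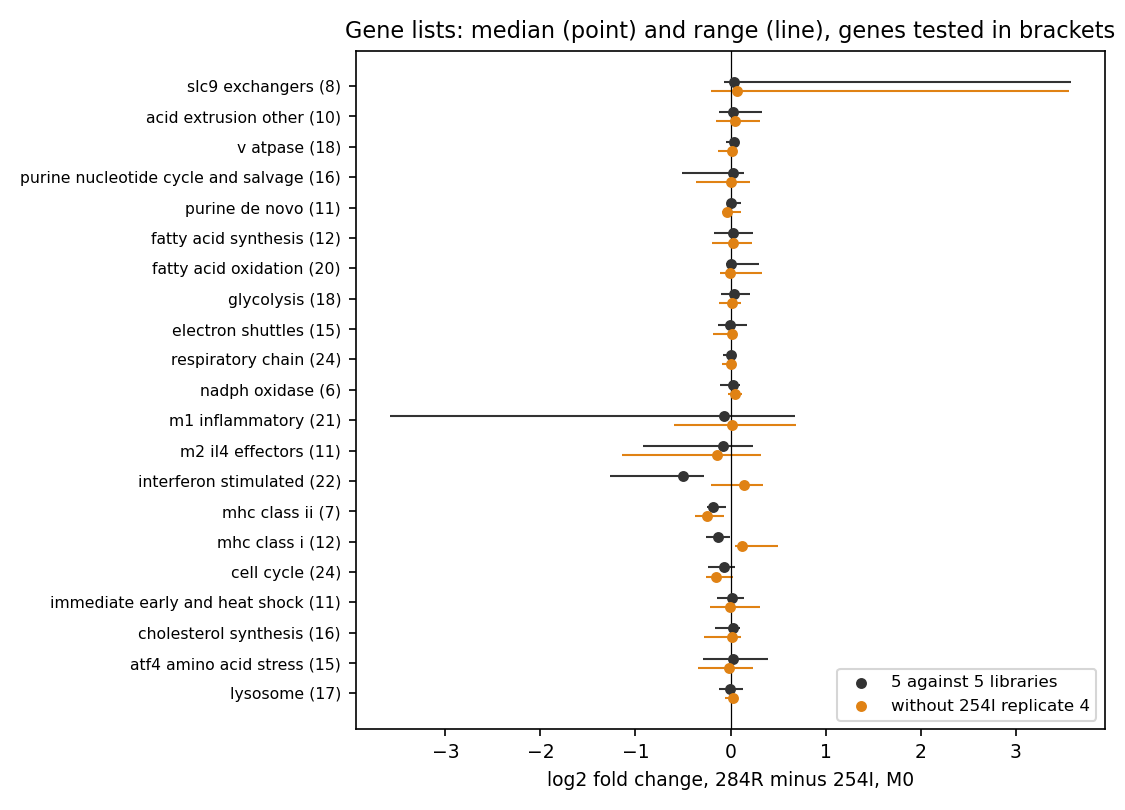
Log2 fold changes of 284R minus 254I in M0 by gene list (x axis), with the median of each list's tested genes as a point and the range as a line, for all 10 libraries and without 254I replicate 4. The interferon-stimulated list has a median of -0.50 with that library and 0.14 without it.

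The interferon-stimulated genes show what 1 library does to a list. All 22 were lower in 284R (median -0.50, range -1.27 to -0.28), yet edgeR called 0 of them, and 0 reached p under 0.05 before adjustment. Their summed level was 8066 CPM in 254I replicate 4, against 1281 to 2126 CPM in the other 254I libraries and 1135 to 2757 CPM in 284R. Irf7, the transcription factor that amplifies type I interferon, averaged 425.4 ± 623.3 against 186.5 ± 77.1 CPM. Ccl5, a chemokine for T cells and monocytes, stood at 562.9 CPM in 254I replicate 4 and at 6.24 to 13.5 CPM in the other 9 libraries. Without that library 19 of the 22 were higher, 3 lower, and the median was 0.14. MHC class I genes turned in the same way, from 12 of 12 lower (median -0.13) to 12 of 12 higher (0.12), while the 7 MHC class II genes were lower both times (-0.19 and -0.25). Class II sums ran from 457 to 1233 CPM in 254I, and those of 284R, 610 to 819 CPM, lay within that range. Without 254I replicate 5, the lowest of them, the class II median was -0.36. In that fit 2 of the 7 had an unadjusted p under 0.05 (edgeR), beside 169 of all 12248 genes, and 0 were called.

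**Figure D4:**
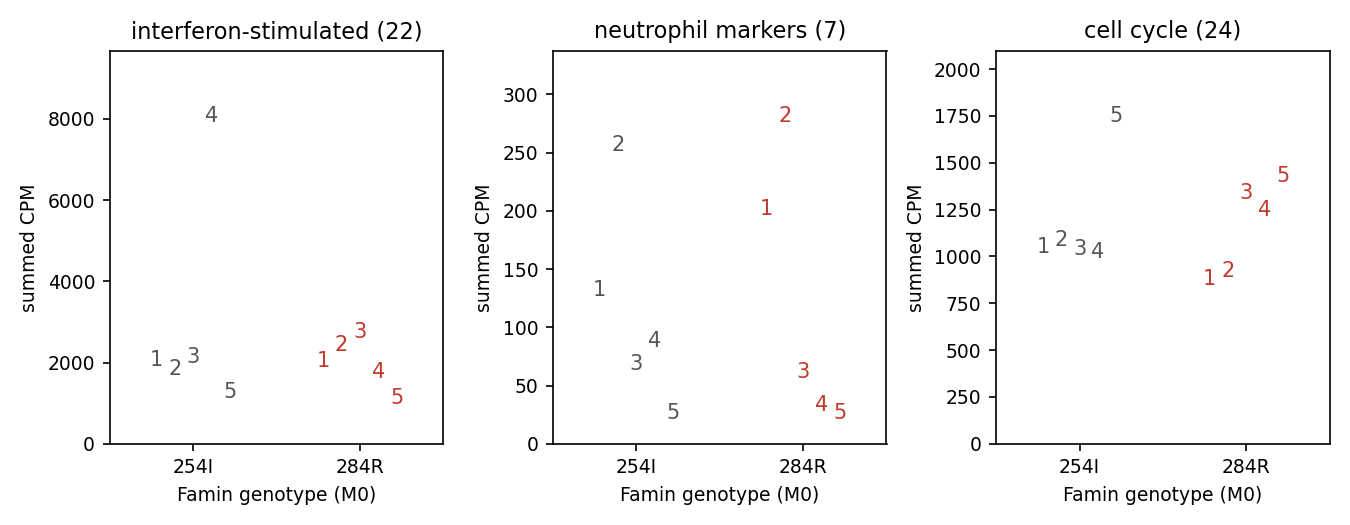
Summed CPM of the interferon-stimulated, neutrophil and cell cycle lists in each M0 library of 254I and 284R, where each digit is a library's replicate number. 254I replicate 4 reaches 8066 for the interferon list, and neutrophil markers are highest in replicates 1 and 2 of both genotypes.

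No polarization gene passed the test. Of 21 tested M1 inflammatory genes 10 were higher and 11 lower, and of 11 M2 effectors of IL-4 4 were higher and 7 lower (2 and 9 without 254I replicate 4), with 0 called in either. Cxcl1, a neutrophil chemokine, averaged 0.91 ± 0.16 against 1.45 ± 0.60 CPM (0.67, SE 0.27) and Nfkbia, the inhibitor of NF-κB, 53.7 ± 9.52 against 63.8 ± 7.28 CPM (0.25, SE 0.11). Both were higher in 284R in 5 of 5 pairs (2.37% of all genes tested), and neither passed. Mrc1, the mannose receptor, averaged 790.9 ± 68.8 against 697.5 ± 38.6 CPM (-0.19, SE 0.078). Cell cycle genes were highest in replicate 5 of both genotypes. They summed to 1748 CPM in 254I replicate 5 against 1025 to 1089 CPM in the other 254I libraries. In 284R replicate 5 they summed to 1428 CPM, against 881 to 1338 CPM in the other 284R libraries. Leaving out 254I replicate 5 alone keeps its 284R counterpart in the fit. Of the 24 genes 18 were lower in 284R with all libraries (median -0.07), but 20 were higher without 254I replicate 5 (0.16) and 22 lower without 254I replicate 4 (-0.15).

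Beyond Slc9a9 and Mid1, the genes of smallest p were mostly low. Counting Slc9a9 and Mid1, groups did not overlap for 9 genes higher in 284R (0.074% of those tested) and 5 lower (0.0411%), and the libraries of all 5 pairs moved together for 288 genes higher (2.37%) and 211 lower (1.74%). Nr6a1, an orphan nuclear receptor, held 2.91, 2.91, 2.68, 3.05 and 2.75 CPM in 254I and 3.36, 4.03, 3.78, 4.01 and 3.65 CPM in 284R (0.39, SE 0.11). Its groups lay apart by a small step. Strbp, an RNA-binding protein, held 4.85, 4.16, 5.36, 4.93 and 4.92 CPM in 254I and 3.83, 4.15, 3.84, 3.76 and 3.65 CPM in 284R (-0.33, SE 0.10). Replicate 2 of each group all but met. Mpp7, a scaffold of cell junctions, held 6.94, 3.57, 5.12, 4.22 and 5.29 CPM in 254I and 3.79, 3.20, 3.04, 1.55 and 1.98 CPM in 284R (-0.89, SE 0.25). It was lower in each of the 5 pairs, although the groups overlapped. Tet1, an enzyme that oxidizes methylated cytosine, averaged 0.32 against 0.59 CPM (0.88, SE 0.29), and Dnmt3l, a cofactor of DNA methyltransferases, 0.29 against 0.64 CPM (1.11, SE 0.38). Treml4, a receptor of myeloid cells, averaged 1.73 against 2.87 CPM (0.73, SE 0.21), and Procr, the protein C receptor, 13.0 against 16.5 CPM (0.33, SE 0.11). On the lower side stood Abhd6, a monoacylglycerol lipase (0.93 against 0.54 CPM, -0.77, SE 0.23), Alpk3, an alpha-kinase (0.55 against 0.32 CPM, -0.79, SE 0.24), and C2 of the complement cascade (0.76 against 0.45 CPM, -0.75, SE 0.27). Their adjusted p was 1.00 in each case (edgeR).

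**Figure D5:**
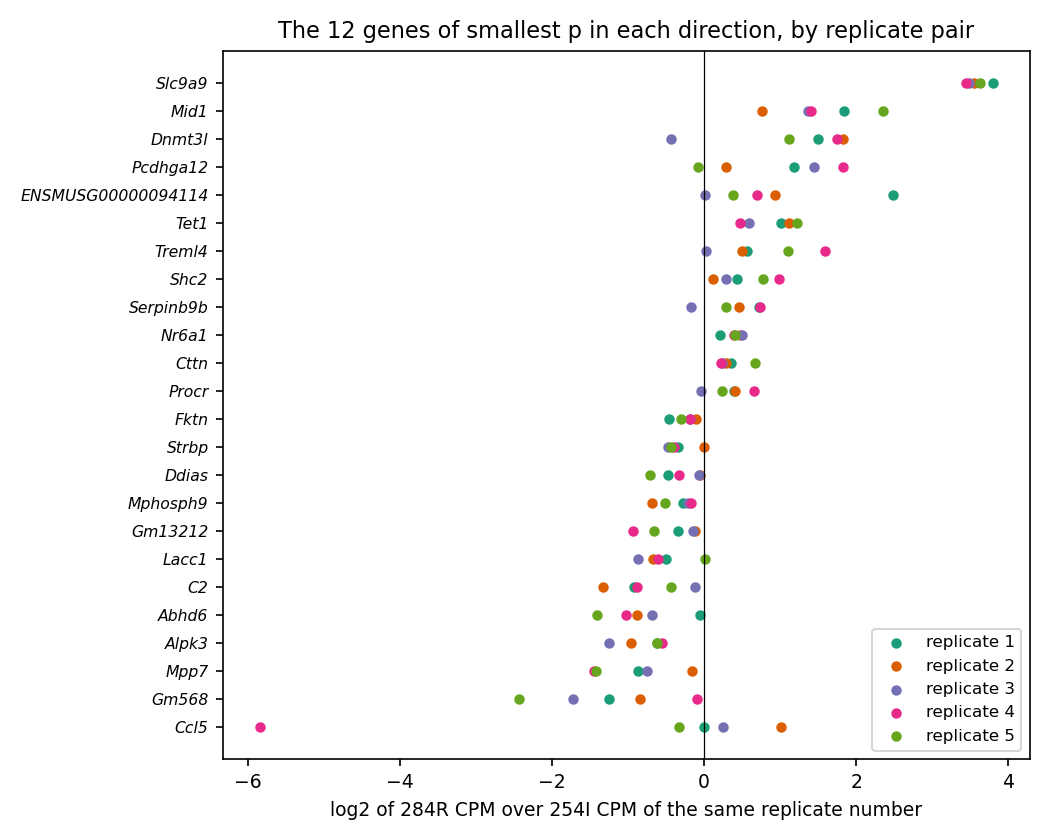
Log2 of the ratio of 284R to 254I CPM in each replicate pair (x axis) for the 12 genes of smallest p in each direction in M0, where each point is a pair. The 5 points of Slc9a9 lie together, between ratios of 10.9 and 14.0, while those of Mid1 run from 1.69 to 5.13.

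The list of 35 genes that the study itself drew from the M0, M1 and M2 libraries of this series is not independent evidence. Of its 23 genes tested in M0 1 was called, and 4 were higher and 2 lower at an unadjusted p under 0.05 (edgeR). The higher ones were Slc9a9, Mid1, Rap1gap and Gm10425, and the lower ones Mpp7 and Lacc1. Rap1gap differed by 0.63 (SE 0.23) with all libraries and by 0.81 (SE 0.21) without 254I replicate 4. Over all genes tested the unadjusted shares were 0.271% and 0.239%. The median log2 fold change of the 23 was 0.16 beside -0.01 for all genes.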

How the data were processed

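Poly(A) RNA of bone marrow-derived macrophages was sequenced as single reads of 50 bp, and the authors deposited raw read counts per Ensembl gene for 45 libraries, of which 10 were compared. The labels and methods name HISAT2 and mm10, the series text names STAR, and the counting tool, annotation and strand setting are not given in the sources used here. Of 29307 gene identifiers, 29081 were matched to a symbol, and coordinates came from GENCODE M21 (GRCm38). No columns of other samples were found and no libraries held identical values. Genes were filtered with filterByExpr, scaled by TMM and tested with edgeR 4.0.16 (quasi-likelihood, robust, R 4.3.3) at a Benjamini-Hochberg adjusted p under 0.05, without a block. CPM values share a TMM scale over 45 libraries, and the permutation test of Lacc1 used log2(CPM + 1). DESeq2 1.42.0, limma 3.58.1 (voom), other filters and scalings, wider fits and leaving out libraries were alternatives. The paired permutation, gene lists without 254I replicate 4 or 5 and the M1 sum without Ccl5 were chosen after seeing the data. The script was tested on simulated data.

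Depth was 21201709 to 33864710 counts per library. The series gives 5 mice per genotype, and p-values measure the spread between their cultures. Deviations from the group means of same-numbered libraries of the 2 genotypes correlated at 0.744, 0.695, 0.144, 0.268 and 0.791 over 11088 genes, each over 0.1, so the numbers were taken to pair them; replicates 3 and 4 correlated better with another number. What a number stands for is not stated in the labels. Genes were named where called, among the 12 of smallest p in each direction, with groups apart, or within lists by p or level. The members, lists and rule were chosen with earlier results of these data known. Results for some items are not reported here.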

Additional observations from a re-analysis of the deposited data

Results flagged for a closer look

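Within each group of 5 libraries, a library was singled out where its gap to the nearest other library exceeded the 95% critical value of Dixon's ratio. Of 126 groups examined 16 did so. For a single group chance gives about 1 in 20. The groups examined share libraries, and their genes were picked partly by p, so that rate is not an expectation for the 126. In 254I replicate 4 the interferon-stimulated genes summed to 8066 CPM (the other libraries of the group 1281 to 2126) and the M1 inflammatory genes to 822 CPM (230.1 to 355). Ccl5, a member of the latter list, was at 563 CPM there (6.58 to 11.4), and without it the other 27 genes summed to 258.7 CPM (218.6 to 347.2). The same library held Lacc1 at 257 CPM (158.8 to 171.9), Gm13212 at 10.8 CPM (7.03 to 7.84) and Gkap1 at 8.10 CPM (9.05 to 9.28). In 254I replicate 5 cell cycle genes summed to 1748 CPM (1025 to 1089), glycolytic genes to 4120 CPM (3405 to 3587), fatty acid synthesis genes to 748 CPM (661 to 674) and cholesterol synthesis genes to 643 CPM (432 to 470). Adat2 was at 3.99 CPM in 254I replicate 1 (4.26 to 4.34). In 284R replicate 1 ENSMUSG00000094114 was at 3.03 CPM (1.10 to 1.58) and Mkln1os at 0.686 CPM (0.359 to 0.439). Wdr70 was at 12.5 CPM in 284R replicate 2 (11.8 to 11.99). In 284R replicate 3 monocyte markers summed to 111 CPM (44.9 to 56.7) and respiratory chain genes to 3050.2 CPM (3164 to 3204).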

How the results depend on the processing

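Slc9a9 was the 1 gene called in M0 under 21 of 24 alternatives. DESeq2's Wald test called 2 genes (65 at an unadjusted p under 0.05), the fit of the 15 M0 libraries 0 (104 unadjusted) and that of all 45 libraries 0 (140 unadjusted, edgeR). With Mid1 added by DESeq2 and Slc9a9 lost in the wider fits, the count of list members moved alike, to 2, 0 and 0. The log2 fold change of Slc9a9 stayed between 3.45 and 3.73. Leaving out each library gave 1 call each time (lowest 1, highest 1), with 39 to 169 genes unadjusted. The replicate block gave 1 call, with 247 genes unadjusted against 62 (710 without replicate 3, and 156 to 302 without each of the others), and for the changes from M0 to M1 and to M2 the mouse as replicate block gave 0 and 0 calls (400 and 93 unadjusted). Both changes had 0 calls under all 18 alternatives. Ccl5, at -3.59 with all libraries, ran from -3.89 (without 254I replicate 2) upwards and reversed to 0.30 without 254I replicate 4 and to 0.26 without replicate 4 in both genotypes with the replicate block. The library's part in this is seen in its level of 562.9 CPM; its cause was not tested. Genes near 1 CPM have standard errors that leave a 2-fold change open.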

Other observations

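Lacc1 differed by replicate number in 284R also after polarization. The M1 cultures of replicates 1 to 5 stood at 395.9, 262.8, 218.2, 584.0 and 553.2 CPM. After IL-4 the corresponding levels were 121.6, 56.8, 66.6, 199.5 and 174.6 CPM. In M0, M1 and M2 alike, replicates 4 and 5 were above replicates 1, 2 and 3. The 254I libraries ran from 485.8 to 523.2 CPM in M1 and from 159.3 to 169.3 CPM in M2. This difference between replicates was not tested.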
